A study of Mus musculus with 8 samples.

Results

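Cholesterol is built from acetyl-CoA through mevalonate, farnesyl diphosphate, squalene and lanosterol, and the genes of this route are switched on together by SREBP transcription factors when sterol is low in the membranes of the endoplasmic reticulum. The sterol response element is the promoter sequence that SREBP binds, often beside a CCAAT box and a GC box. In the testis, Leydig cells turn cholesterol into testosterone, and germ cells and Sertoli cells also contain enzymes of the route. Enzymes of cholesterol biosynthesis were chosen by gene symbol, as *Hmgcs1*, *Idi1*, *Fdps*, *Fdft1*, *Sqle*, *Lss*, *Cyp51* and *Dhcr7*. These are 8 of the 40840 genes listed in each mouse, and all 8 were among the 19104 genes with enough reads to be tested.

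Whole testes of 8 mice on a C57BL/6J background, 4 called wild type and 4 *Tra2b-cPEko*, were taken for RNAseq at P12, 12 days after birth. In *Tra2b-cPEko* mice the poison exon of *Tra2b*, an exon that sends the transcript to decay, was floxed on one allele, where Vasa-Cre removed it, and already deleted on the other (Tra2b fl/-;Vasa-Cre). The mice called wild type were Tra2bPE fl/+ without Cre, so they carried 1 floxed allele. Vasa-Cre acts in germ cells only, so the Sertoli, Leydig and myoid cells of a *Tra2b-cPEko* testis kept the exon on the floxed allele. In a whole testis, fewer cells of a type and less RNA per cell cannot be told apart.

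Genes received 36757386 to 59101569 reads in each mouse, of which 587 to 16934 fell on a single enzyme. Levels are given in CPM, the counts of a gene relative to the total of its library, scaled by the TMM method. *Tra2b*, the targeted gene, was at 164 ± 8.93 CPM in wild type and 198 ± 8.49 CPM in *Tra2b-cPEko* testes (SD, n = 4 each), without overlap and with an adjusted p of 0.0552 by edgeR and 0.000195 by DESeq2. Some libraries stood apart from the others. *Tra2b-cPEko* C carried epididymal transcripts, with a sum over 7 epididymal markers of 176 CPM against 1.88 to 3.05 CPM in the other 7 mice, and 14.1 CPM of the adipocyte gene *Fabp4* against 0.541 to 2.59 CPM. Wild type A and B had sums of 531 and 564 CPM over 10 genes of pachytene spermatocytes, against 264 to 382 CPM in the other 6 mice. Leydig and Sertoli cells were represented in every library, since *Cyp11a1* was at 79.2 to 113 CPM and *Sox9* at 142 to 190.1 CPM. Of their other markers, *Star* was at 36.2 to 144 CPM and *Amh* at 103 to 211 CPM. The Leydig hormone *Insl3* was low, at 0.841 to 6.05 CPM.

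None of the 8 enzymes differed between the genotypes after adjustment over all genes, by edgeR (adjusted p from 0.184 to 0.984) or by DESeq2 (0.0834 or more), although all 8 had a mean fold change below 0 on the log2 scale. The median of the 8 log2 fold changes was -0.11, against -0.00 over all genes tested, and the largest in size was -0.19, for *Idi1*. A fold change below 0 was found for 50.3% of all genes. An unadjusted p under 0.05 with lower levels in *Tra2b-cPEko* testes was found for 3 enzymes, *Idi1*, *Sqle* and *Fdps*, and for 7.07% of all genes, and DESeq2 also gave 3. Values in the genotypes did not overlap for 1 enzyme, *Idi1*, and were then lower in *Tra2b-cPEko* testes, as for 4.18% of all genes (8.54% in either direction). Calls at an adjusted p under 0.05 were made for 0.157% of all genes by edgeR and for 2.79% by DESeq2. Without wild type C, 6 of the 8 enzymes were lower in *Tra2b-cPEko* testes and the median was -0.06. Without *Tra2b-cPEko* D, 6 were lower and the median was -0.07.

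**Figure D1:**
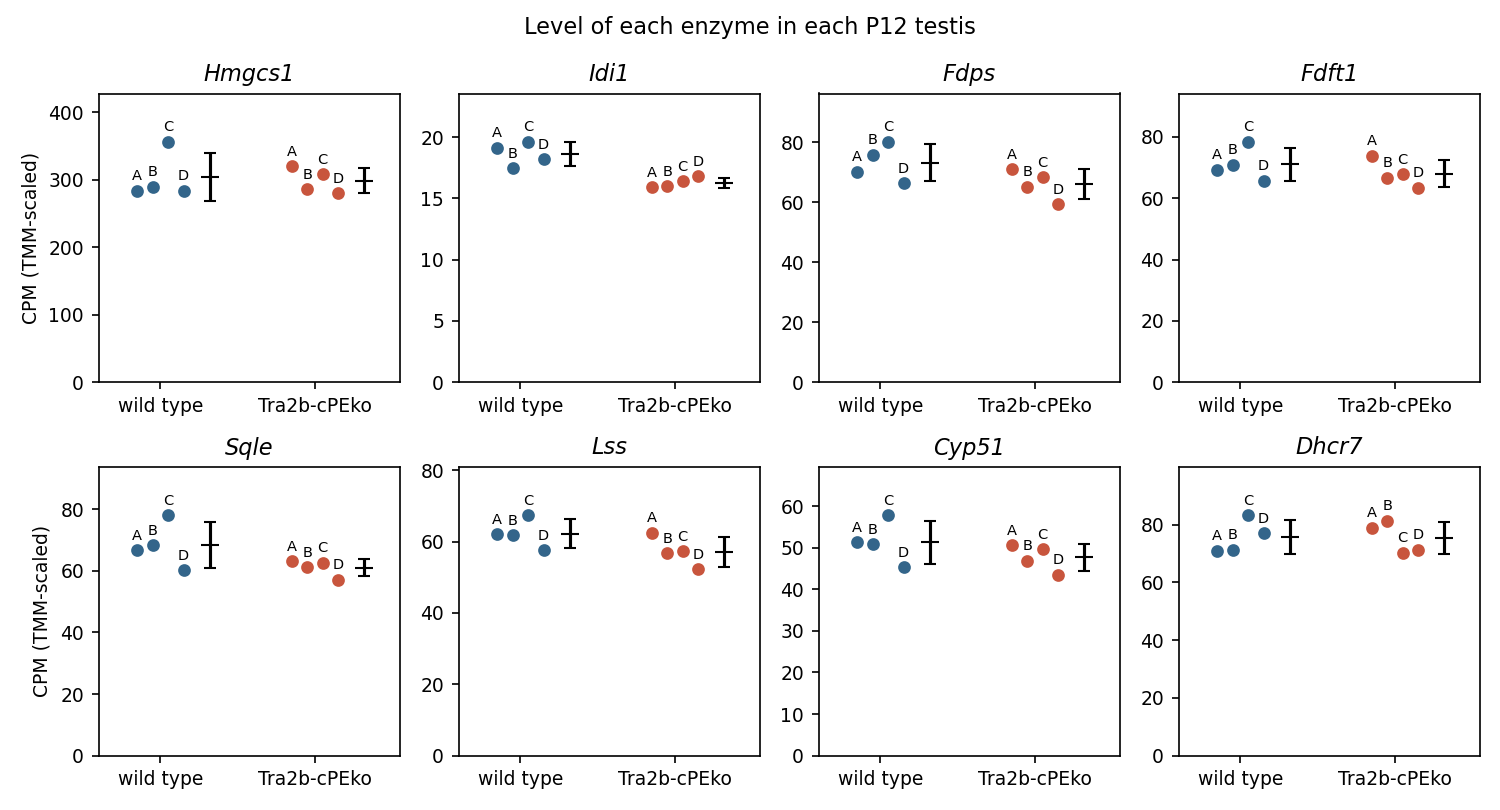
Level of the 8 enzymes in each P12 testis, in CPM on an axis from 0, with a panel for each gene. Points are mice A to D of each genotype, the horizontal bar beside them is the mean and the error bar 1 SD (n = 4). Wild type C is the highest of the 8 mice in every panel, and the genotypes are apart only for *Idi1*.

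Promoter sequence was at hand in the RefSeq promoter table (GRCm38.p6) for 5 of the 8 enzymes, with 1 entry each for *Hmgcs1*, *Idi1*, *Lss* and *Cyp51* and 3 entries for *Dhcr7*. *Fdps*, *Fdft1* and *Sqle* have no entry. The 250 bases before the start of transcription are printed for the 4 genes with a single entry. They run 5′ to 3′ on the strand of the gene. Of these genes, *Hmgcs1*, *Lss* and *Cyp51* went up and down together over the mice. *Idi1*, the enzyme with the fewest reads, did not. Capitals mark the sterol response element searched, TCACNCCAC, and the CCAAT box, CCAAT or its reverse complement ATTGG. The windows are chr13:119690101-119690350 (+) for *Hmgcs1*, chr13:8885356-8885605 (+) for *Idi1*, chr10:76531355-76531604 (+) for *Lss* and chr5:4104698-4104947 (-) for *Cyp51*.
Hmgcs1: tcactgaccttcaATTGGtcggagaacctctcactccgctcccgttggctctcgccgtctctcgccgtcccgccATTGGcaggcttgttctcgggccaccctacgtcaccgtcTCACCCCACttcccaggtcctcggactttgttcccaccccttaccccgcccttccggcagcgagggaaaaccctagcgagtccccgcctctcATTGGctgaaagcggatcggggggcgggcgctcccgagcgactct
Idi1: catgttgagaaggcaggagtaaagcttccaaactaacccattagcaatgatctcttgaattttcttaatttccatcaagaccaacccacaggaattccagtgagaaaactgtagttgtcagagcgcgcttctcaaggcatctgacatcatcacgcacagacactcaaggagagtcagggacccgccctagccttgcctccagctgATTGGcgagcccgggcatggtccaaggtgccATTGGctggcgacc
Lss: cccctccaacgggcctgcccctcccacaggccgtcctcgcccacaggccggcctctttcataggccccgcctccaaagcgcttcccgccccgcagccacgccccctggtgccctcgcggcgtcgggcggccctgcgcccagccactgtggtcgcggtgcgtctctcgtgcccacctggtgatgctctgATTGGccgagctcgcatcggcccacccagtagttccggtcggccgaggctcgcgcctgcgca
Cyp51: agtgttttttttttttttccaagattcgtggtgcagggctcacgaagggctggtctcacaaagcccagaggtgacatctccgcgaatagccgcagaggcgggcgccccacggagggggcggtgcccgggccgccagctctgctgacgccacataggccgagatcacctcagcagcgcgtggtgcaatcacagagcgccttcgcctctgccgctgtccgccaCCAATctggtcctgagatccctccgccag

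TCACNCCAC, read on both strands, was found once in the *Hmgcs1* window, 137 bases before the start, and in none of the windows of the other 4 enzymes with an entry. It is rare, with a match in 1.05% of the 32851 promoters of the table, and was in none of the 12 other enzymes of the route that have an entry. CCAAT was found in all 5 enzymes, with 3 matches in *Hmgcs1*, 2 in *Idi1* and 1 each in *Lss* and *Cyp51*, and for *Dhcr7* in 1 of its 3 entries. It was in 33.8% of all promoters and in 10 of the 12 other enzymes. Such shares are over promoters, while an enzyme with several entries, such as *Dhcr7*, counts with a match in any of them, so the units differ. GGGCGG, the core of the GC box, was found in all 5 enzymes, in 32.7% of all promoters and in 10 of the 12 other enzymes. None of the 3 motifs contains another, and a match is a description of the sequence and not a binding site. Each was searched as 1 fixed pattern. A window without a match was therefore not shown to lack a sterol response element, which may be present in another form.

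*Hmgcs1* (chr13:120151915-120170470 on GRCm39, + strand) encodes the cytosolic HMG-CoA synthase, which acts before mevalonate is formed. Its levels in wild type A to D were 284, 289, 356 and 283 CPM, and in *Tra2b-cPEko* A to D 320.2, 286, 308 and 279.9 CPM. Wild type C was far above the other wild type mice, and the genotypes overlapped. The means were 303 ± 35.5 and 299 ± 18.9 CPM (SD, n = 4 each), and the log2 fold change was -0.02 (SE 0.08, 95% interval -0.19 to 0.14, edgeR adjusted p = 0.922). The interval runs from -12.2% to 10.6% of the wild type level. The sign depends on single mice, since the log2 fold change was 0.06 without wild type C and 0.01 without *Tra2b-cPEko* D.

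*Idi1* (chr13:8935537-8942487, + strand) encodes isopentenyl-diphosphate isomerase, which interconverts the pair of building blocks of all isoprenoids. Wild type A to D had 19.1, 17.5, 19.6 and 18.2 CPM, and *Tra2b-cPEko* A to D had 15.9, 16.0, 16.4 and 16.8 CPM. Every *Tra2b-cPEko* mouse was below every wild type mouse, though the nearest were close. The means of 18.6 ± 0.958 and 16.3 ± 0.419 CPM (SD, n = 4 each) gave a log2 fold change of -0.19 (SE 0.06, 95% interval -0.33 to -0.06), or -12.6%. The exact permutation test reached the smallest p that 70 arrangements of the mice allow, 0.0286, two-sided. Over all genes the adjusted p was 0.184 by edgeR and 0.0834 by DESeq2, so the difference was not past the threshold by either tool. *Idi1* also had the smallest spread within a genotype, with an SD of 0.06 on the log2 scale against 0.10 to 0.13 for the other 7 enzymes. A pseudogene, *Idi1-ps1*, is identical to *Idi1* over 684 bases, and it received 18 to 43 reads in a mouse, against 587 to 1075 for *Idi1*. Reads that fit both cannot be assigned to one of them.

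*Fdps* (chr3:89000888-89019213, - strand) encodes farnesyl diphosphate synthase, at the point where the routes to sterols, dolichol, ubiquinone and protein prenylation part. Its levels were 70.2, 75.9, 80.2 and 66.4 CPM in wild type A to D, and 71.1, 65.3, 68.3 and 59.3 CPM in *Tra2b-cPEko* A to D. The ranges overlapped from 66.4 to 71.1 CPM. With means of 73.2 ± 6.09 and 66.0 ± 5.04 CPM (SD, n = 4 each), the log2 fold change was -0.15 (SE 0.07, 95% interval -0.30 to -8.8e-05, edgeR p = 0.0499 and adjusted p = 0.326, exact permutation p = 0.143). Of the 8 enzymes, *Fdps* has the most near-identical copies in the annotation, 5 copies with 96.1% to 98.9% identity over their aligned parts.

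*Fdft1* (chr14:63382189-63417027, - strand) encodes squalene synthase, the first enzyme of the branch that leads only to sterols. Wild type A to D had 69.3, 71.0, 78.5 and 65.8 CPM, and *Tra2b-cPEko* A to D had 73.9, 66.7, 67.9 and 63.5 CPM. The second highest of the 8 mice was a *Tra2b-cPEko* mouse, A. The means were 71.1 ± 5.36 and 68.0 ± 4.34 CPM (SD, n = 4 each), a log2 fold change of -0.06 (SE 0.06, 95% interval -0.20 to 0.07, edgeR adjusted p = 0.652).

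*Sqle* (chr15:59186869-59203043, + strand) encodes squalene epoxidase, a slow step of the route that uses molecular oxygen. Levels in wild type A to D were 66.7, 68.4, 78.1 and 60.2 CPM, and those in *Tra2b-cPEko* A to D were 63.2, 61.3, 62.7 and 57.1 CPM. Of the wild type mice, only D lay within the range of the *Tra2b-cPEko* mice. The means of 68.3 ± 7.38 and 61.1 ± 2.75 CPM (SD, n = 4 each) gave a log2 fold change of -0.16 (SE 0.07, 95% interval -0.31 to -0.01, edgeR p = 0.0390 and adjusted p = 0.301, exact permutation p = 0.114).

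*Lss* (chr10:76367298-76392976, + strand) encodes lanosterol synthase, which closes the rings of the sterol. It was at 62.1, 61.8, 67.4 and 57.5 CPM in wild type A to D and at 62.5, 56.8, 57.3 and 52.2 CPM in *Tra2b-cPEko* A to D. *Tra2b-cPEko* A lay among the wild type mice. The log2 fold change was -0.12 (SE 0.06, 95% interval -0.26 to 0.02, edgeR adjusted p = 0.384), from means of 62.2 ± 4.05 and 57.2 ± 4.22 CPM (SD, n = 4 each).

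*Cyp51* (chr5:4123416-4154751, - strand) encodes the demethylase that acts on lanosterol, and its product is a meiosis-activating sterol. The 4 wild type values were 51.3, 50.9, 57.8 and 45.2 CPM, and the 4 *Tra2b-cPEko* values were 50.6, 46.8, 49.6 and 43.5 CPM. Again the ranges overlapped, with wild type D below 3 of the *Tra2b-cPEko* mice. Means of 51.3 ± 5.15 and 47.6 ± 3.21 CPM (SD, n = 4 each) gave a log2 fold change of -0.11 (SE 0.07, 95% interval -0.26 to 0.05, edgeR adjusted p = 0.514).

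*Dhcr7* (chr7:143376740-143402149, + strand) encodes the reductase of the last step, which turns 7-dehydrocholesterol into cholesterol. Wild type A to D had 70.9, 71.3, 83.3 and 76.9 CPM, and *Tra2b-cPEko* A to D had 78.9, 81.3, 70.2 and 71.2 CPM. The genotypes covered nearly the same range, and the means were 75.6 ± 5.79 and 75.4 ± 5.52 CPM (SD, n = 4 each). The log2 fold change was -0.00 (SE 0.06, 95% interval -0.14 to 0.13, edgeR adjusted p = 0.984), so its interval runs from -9.48% to 9.80% of the wild type level. Leaving out 1 mouse turned its sign for 4 of the 8 mice, to at most 0.04.

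Of the 8 genes, 6 share exonic bases with a gene on the opposite strand. These are *Hmgcs1* with *Nim1k*, *Idi1* with *Gm48574*, *Fdft1* with *Ctsb*, *Sqle* with *Washc5*, *Lss* with *Gm15343* and *Cyp51* with *Akap9*, while no such overlap was annotated for *Fdps* and *Dhcr7*. The kit kept the strand of the RNA, but whether the counting used it is not stated in the sources used here, so reads of such a pair may not be told apart.

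Levels of different genes were compared as CPM per kilobase of merged exons. Lengths are from GENCODE vM39, while the study names NCBI annotation, so they may differ from the exons on which reads were counted. *Hmgcs1* was the highest by far, at 57.5 ± 6.74 CPM per kb in the wild type and 56.7 ± 3.58 in the *Tra2b-cPEko* testis (SD, n = 4 each). *Fdft1* (14.9 and 14.2 CPM per kb, in the same order) and *Fdps* (14.97 and 13.5) followed, and the values of this pair overlapped. *Dhcr7* (9.23 and 9.20) and *Cyp51* (8.64 and 8.03) also overlapped, as did *Cyp51* and *Sqle* (7.69 and 6.87), although in each of the 8 mice *Dhcr7* was above *Cyp51* and *Cyp51* above *Sqle*. *Lss* (5.48 and 5.03) and *Idi1* (5.25 and 4.59) were lowest and overlapped. The order depends on the length used. With the canonical transcript in place of merged exons, *Fdps* came to 56.0 CPM per kb in wild type, the second place, and 3 of the 8 genes kept their place. *Hmgcs1* was first and *Idi1* last with each of the 3 lengths tried.

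**Figure D2:**
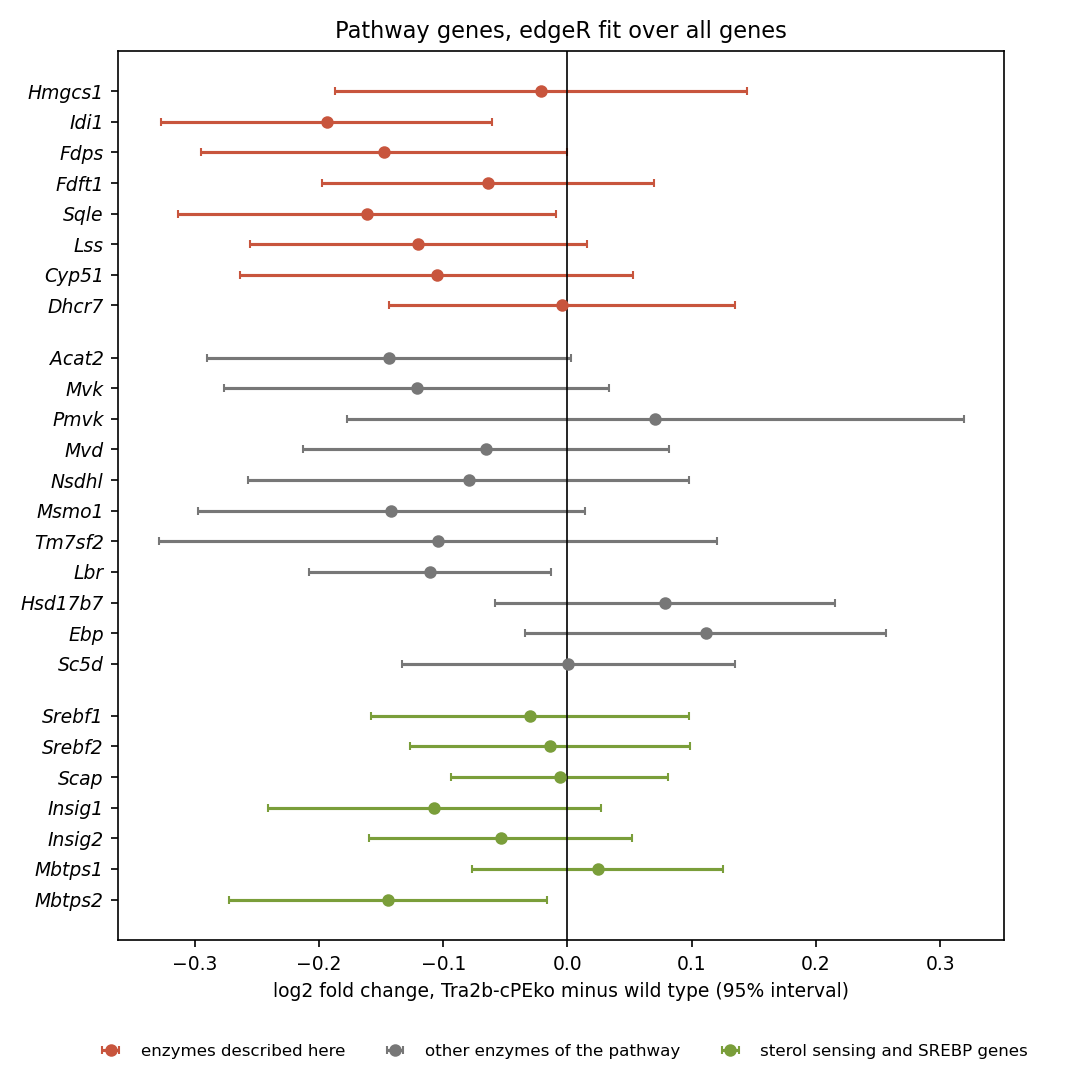
Log2 fold change of *Tra2b-cPEko* against wild type with its 95% interval from edgeR, for the 8 enzymes, 11 of the other enzymes of the route and the 7 genes of sterol sensing. Points of the 8 enzymes lie between -0.19 and -0.00, and only the intervals of *Idi1*, *Sqle*, *Fdps*, *Lbr* and *Mbtps2* end below 0.

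The other enzymes of the route were 14, of which 13 were tested, since *Idi2* had no read in any mouse. None was called by edgeR or DESeq2, 9 had a fold change below 0 and 4 above 0, and the median was -0.08 on the log2 scale. *Lbr*, a sterol reductase that is also a receptor of the nuclear lamina, was the only one of the 13 with an unadjusted p under 0.05. Over all genes, 7.07% had such a p with lower levels in *Tra2b-cPEko* testes, so 1 of 13 is near that share. *Lbr* was at 78.3, 76.1, 74.7 and 72.8 CPM in wild type A to D and at 70.1, 68.0, 67.7 and 73.8 CPM in *Tra2b-cPEko* A to D. *Tra2b-cPEko* D lay within the wild type range, and the log2 fold change was -0.11 (SE 0.05, edgeR p = 0.0292 and adjusted p = 0.273, exact permutation p = 0.0571). Upstream of *Idi1*, the log2 fold changes were -0.14 for *Acat2*, the thiolase of the first step, -0.12 for *Mvk*, 0.07 for *Pmvk* and -0.07 for *Mvd*, the kinases and the decarboxylase of mevalonate. After lanosterol, the log2 fold changes were -0.08 for *Nsdhl*, -0.14 for *Msmo1* and 0.08 for *Hsd17b7*, which remove methyl groups, -0.10 for *Tm7sf2*, a reductase like *Lbr*, 0.11 for *Ebp*, the isomerase, and 0.00 for *Sc5d*, the desaturase.

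Of the 7 genes that sense sterol and process SREBP, 6 had a fold change below 0 and 1 above 0, with a median of -0.03 on the log2 scale, and none was called by edgeR or DESeq2. *Mbtps2*, the protease that makes the last cut of SREBP, was the 1 of the 7 with an unadjusted p under 0.05, against 7.07% of all genes with lower levels. It was at 27.2, 24.9, 27.1 and 25.7 CPM in wild type A to D and at 24.4, 24.6, 24.0 and 21.9 CPM in *Tra2b-cPEko* A to D. The genotypes did not overlap, as for 4.18% of all genes with lower values in *Tra2b-cPEko* testes, though the nearest mice were close, at 24.9 and 24.6 CPM. The log2 fold change was -0.14 (SE 0.06, edgeR p = 0.0299 and adjusted p = 0.275, exact permutation p = 0.0286). For the transcription factors themselves it was -0.01 for *Srebf2* (219 ± 16.2 and 217 ± 4.67 CPM, SD, n = 4 each) and -0.03 for *Srebf1*. It was -0.01 for *Scap*, the sterol sensor, -0.11 for *Insig1* and -0.05 for *Insig2*, which hold it back, and 0.02 for *Mbtps1*, the other protease.

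Genes that take up and move sterol gave 5 lower and 3 higher of 8, none with an unadjusted p under 0.05 by edgeR or DESeq2. Among the 9 genes of sterol efflux and storage, all 9 had a fold change above 0, with a median of 0.24 on the log2 scale, where none passed by edgeR, 3 had an unadjusted p under 0.05, as did 8.22% of all genes in that direction, and 2 were called by DESeq2, as were 2.79% of all genes. Without wild type A and B, 7 of the 9 were above 0 and the median was 0.12. *Soat1*, which esterifies cholesterol for storage, was at 148, 142, 156 and 182 CPM in wild type A to D and at 186, 201, 187 and 187 CPM in *Tra2b-cPEko* A to D, without overlap (log2 fold change 0.28, SE 0.07, edgeR adjusted p = 0.116, DESeq2 adjusted p = 0.0185). Values did not overlap for 8.54% of all genes, in either direction. *Apoe*, the lipoprotein that carries sterol out of cells, had a log2 fold change of 0.28 (SE 0.07, edgeR adjusted p = 0.135, DESeq2 adjusted p = 0.0235), and *Mylip*, a ubiquitin ligase that is switched on when sterol is plentiful, of 0.24 (SE 0.09, edgeR adjusted p = 0.253). The macrophage list moved the same way, with 9 of 9 genes higher, 0 called by edgeR (5 with an unadjusted p under 0.05, against the 8.22% of all genes), 1 by DESeq2 (*Csf1r*, log2 fold change 0.29, DESeq2 adjusted p = 0.0400) and a summed level of 125 to 148 CPM in wild type and 150.2 to 179 CPM in *Tra2b-cPEko* testes. Its part in the levels of *Soat1* and *Apoe* was not tested.

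Farnesyl diphosphate also feeds other isoprenoids, and of the 6 genes of these branches 3 were lower and 3 higher. *Dhdds*, which lengthens the dolichol chain, was lower in every *Tra2b-cPEko* mouse (log2 fold change -0.10, SE 0.04, edgeR p = 0.0487 and adjusted p = 0.324, exact permutation p = 0.0286). *Pdss1*, which makes the tail of ubiquinone and is named after its values were seen, was higher in every *Tra2b-cPEko* mouse (log2 fold change 0.14, SE 0.06, edgeR p = 0.0502 and adjusted p = 0.327, exact permutation p = 0.0286). Over all genes, the genotypes did not overlap for 8.54%, in either direction. In fatty acid synthesis, which SREBP also drives, 8 of 9 genes were higher, 4 of 9 without wild type A and B, and none was called by edgeR or DESeq2. An unadjusted p under 0.05 was found for 2 by edgeR, all higher, against 8.22% of all genes in that direction, and for 3 by DESeq2. The DESeq2 count includes *Scd1* (unadjusted p = 0.0470), which is named after its values were seen. *Scd1* was at 35.9 CPM in *Tra2b-cPEko* C, the mouse high in *Fabp4*, and at 7.73 to 14.0 CPM in the other mice. *Elovl6*, an elongase, had a log2 fold change of 0.39 (SE 0.15, edgeR adjusted p = 0.271) and *Fads2*, a desaturase, of 0.13 (SE 0.05, edgeR adjusted p = 0.284). Leydig cells use cholesterol for steroids, and 6 of their 9 markers were higher and 3 lower. By edgeR 0 were called, and DESeq2 called 2, as it did 2.79% of all genes. An unadjusted p under 0.05 by edgeR was found for 2 higher and 1 lower, against 8.22% and 7.07% of all genes. The median log2 fold change of the 9 markers was 0.40, and 0.05 without wild type A and B. *Star*, which brings cholesterol into mitochondria, varied from 36.2 to 80.5 CPM in wild type and from 60.3 to 144 CPM in *Tra2b-cPEko* mice (edgeR adjusted p = 0.499). *Lhcgr*, the receptor of luteinizing hormone, had a log2 fold change of 0.46 (SE 0.12, edgeR adjusted p = 0.131, DESeq2 adjusted p = 0.00851) and *Hsd3b6* of 1.02 (SE 0.28, edgeR adjusted p = 0.183, DESeq2 adjusted p = 0.0308), while *Hsd17b3* had -0.54 (SE 0.20, edgeR adjusted p = 0.267).

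Within a genotype the enzymes varied between mice by an SD of 0.06 to 0.13 on the log2 scale, and their differences between genotypes were 0.00 to 0.19 in size on that scale. Wild type C was the highest of the 8 mice for all 8 enzymes, as for 13.1% of all genes, and *Tra2b-cPEko* D was the lowest of its genotype for 6 of 8, all but *Idi1* and *Dhcr7*, as for 23.5% of all genes. Averaged over the enzymes, wild type C was 0.20 above the mean of the 8 mice on the log2 scale and *Tra2b-cPEko* D was at -0.14, while the other 6 mice lay between -0.06 and 0.03. Over all genes the median of this value was between -0.00 and 0.00 in each mouse. TMM scaling sets the typical gene near 0, so this median does not show that the shifts are particular to the enzymes. Among the 13 other enzymes, wild type C was highest for 6, among them *Acat2*, *Mvd*, *Nsdhl* and *Msmo1*, and *Tra2b-cPEko* D was the lowest of its genotype for 8.

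**Figure D3:**
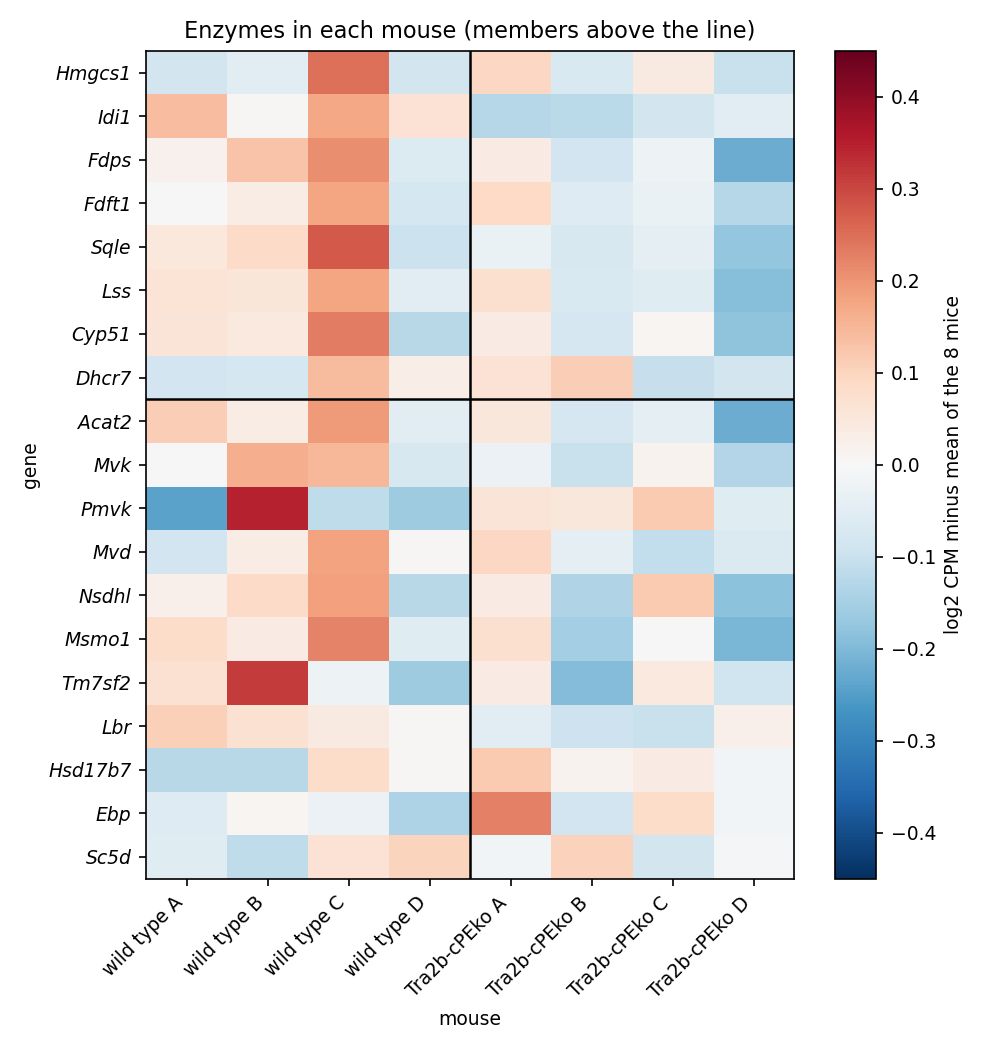
Log2 CPM of the 8 enzymes (above the horizontal line) and 11 of the other enzymes of the route in each mouse, minus the mean of the 8 mice for that gene. The column of wild type C is red for all 8 enzymes, with a mean of 0.20, and that of *Tra2b-cPEko* D is blue, with a mean of -0.14.

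With the mean of each genotype removed, pairs of enzymes were correlated over the 8 mice, with exact permutation tests that exchange mice within a genotype (576 arrangements) and adjustment over the 28 pairs. For 15 pairs the adjusted p was under 0.05, by Pearson's r and by Spearman's rho. These were all the pairs among *Hmgcs1*, *Fdps*, *Fdft1*, *Sqle*, *Lss* and *Cyp51*, with r from 0.83 to 0.97 and rho from 0.86 to 1 (exact permutation, adjusted p from 0.0122 to 0.0227 for r). Averaged over the enzymes, the 2 mice farthest from the mean of their own genotype were wild type C and D. *Tra2b-cPEko* D was nearly as far as wild type D (-0.09 and -0.10 on the log2 scale) and was kept. Without wild type C and D, r of these pairs was 0.85 to 0.97. *Dhcr7* gave r from 0.10 to 0.56 with the other enzymes, and *Idi1* from -0.05 to 0.38, with no adjusted p under 0.05. Without wild type C and D, all 7 pairs with *Idi1* were negative, from -0.72 to -0.36. In that setting only A and B were left of the wild type mice. The 7 pairs share *Idi1*, and most of the other enzymes varied together, so the pairs are not independent. *Idi1* also had the fewest reads of the 8 enzymes, 587 to 1075 in a mouse, and the smallest spread. Counting noise is thus a larger part of its variation and lowers r. How much of the low r comes from it was not tested. The values of a mouse come from 1 library, so the enzymes share its cell makeup, depth and scaling.

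**Figure D4:**
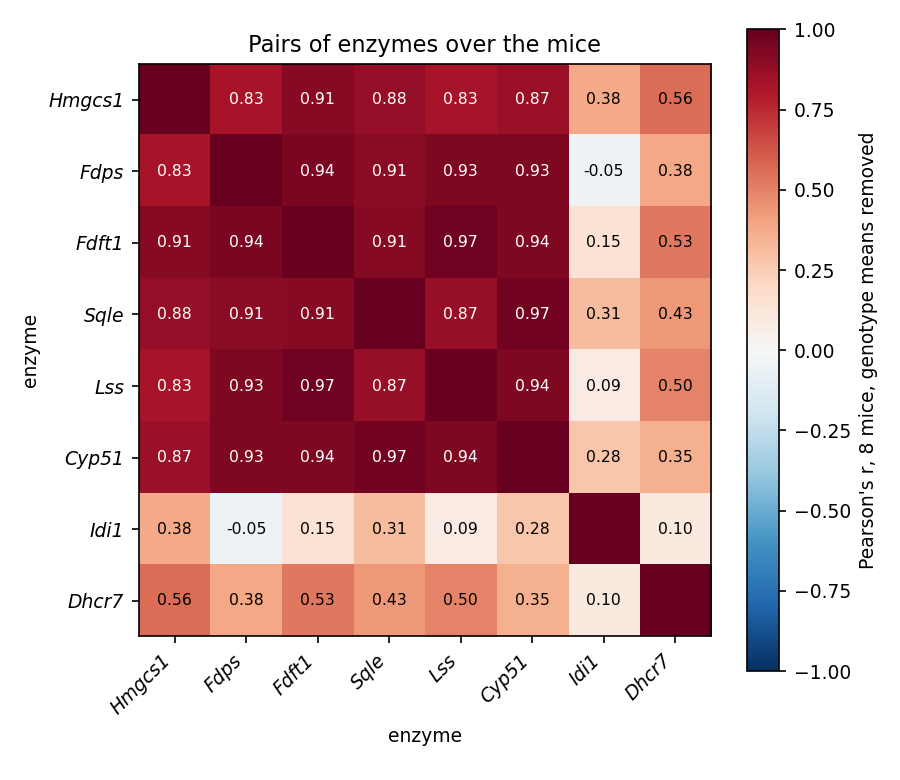
Pearson's r between the log2 CPM of each pair of the 8 enzymes over 8 mice, after the mean of each genotype was removed. *Hmgcs1*, *Fdps*, *Fdft1*, *Sqle*, *Lss* and *Cyp51* form a block with r of 0.83 or more, while the rows of *Idi1* and *Dhcr7* reach at most 0.56.

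Outside the enzymes, the 15469 genes whose mean level was 1 CPM or more were ranked by how closely they followed the mean of the 8 enzymes over the mice, again with genotype means removed, as a description over 8 mice without a test. The median over all genes was r = 0.00, and r was above 0.9 for 0.297% of them. The closest were *Gm52866* and *Map7d3* (r = 0.97), *Sf3b3* (0.97), *Eif4a1* (0.96) and *Gtf2i* (0.96), none of them an enzyme of the route. Within the closest 1%, 154 genes, were 3 of the 13 other enzymes, among them *Msmo1* (r = 0.91) and *Acat2* (0.90). None of the 7 genes of sterol sensing was among them, and *Srebf2* had r = 0.56. Over the 13 other enzymes r had a median of 0.68 and was above 0 for 12. No gene of the leptotene and zygotene or pachytene lists (12 and 9 genes) had r above 0, and the Sertoli list of 12 genes had a median of -0.06. The macrophage list of 8 genes had a median of 0.54 with all 8 above 0. Any part of cell makeup in the shared variation of the enzymes was not tested.

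Markers of testis cell types were read in the same libraries. The summed level of the Sertoli list was 5793 to 6336 CPM in wild type and 5887 to 6672 CPM in *Tra2b-cPEko* testes, and that of the leptotene and zygotene list 1455 to 1961 and 1535 to 1631 CPM. Of the 12 genes of the latter, 8 had a fold change below 0 and 4 above 0, while without wild type A and B 3 were below and 9 above. *Mei1*, a meiotic recombination gene, was called by DESeq2 (log2 fold change -0.36, SE 0.08, edgeR adjusted p = 0.101, DESeq2 adjusted p = 0.00593), and *Rad51ap2* went the other way without a call (log2 fold change 0.33, SE 0.11, edgeR adjusted p = 0.235, DESeq2 adjusted p = 0.0946). *Sohlh1*, a regulator of spermatogonial differentiation, was the one marker gene called by edgeR, with a log2 fold change of -0.34 (SE 0.05, adjusted p = 0.0341). All 6 genes of its list had a fold change below 0, and the summed level did not overlap, at 495 to 536 CPM in wild type and 421 to 490.3 CPM in *Tra2b-cPEko* mice. Of the pachytene list, 9 of 9 tested genes had a fold change below 0, with a summed level of 264 to 564 and 294 to 382 CPM, and 0 were called by edgeR (1 with an unadjusted p under 0.05) or DESeq2. That direction rested on wild type A and B (531 and 564 CPM), since without them 6 of the 9 were above 0 and the median log2 fold change was 0.08. Summed levels of the Leydig list were 635 to 676 and 642 to 873 CPM. No gene was called by edgeR or DESeq2 among the 12 Sertoli, 10 peritubular and stromal, 8 endothelial and 8 undifferentiated spermatogonia genes. Of these, 1, 2, 0 and 1 had an unadjusted p under 0.05 by edgeR, against 7.07% of all genes lower and 8.22% higher. The part of these differences in the levels of the enzymes was not tested. Without wild type A and B, the mice with the most pachytene transcript, all 8 enzymes were lower in *Tra2b-cPEko* testes with a median log2 fold change of -0.12. Without *Tra2b-cPEko* C, the mouse with epididymal transcript, 7 were lower and the median was -0.13.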

How the data were processed

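RNA of whole testes, 4 per genotype, was sequenced by the study after a stranded mRNA kit. The authors deposited raw read counts per gene, 1 table per mouse, ending in 5 lines of the kind htseq-count adds for reads on no single gene, which hold 31.0% to 33.6% of the reads and were left out of every test. The submitters' processing notes name HISAT2 2.2.1, SAMtools 1.7.1, HTSeq 2.0.2 and deepTools 3.5.1, and the study's methods name alignment to GRCm39 with NCBI annotation, Salmon and DESeq2. Whether counting was strand-aware is not given in the sources used here. Such counts hold uniquely placed reads, so genes with near-identical copies can lose reads.

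Counts were tested in R 4.3.3 with edgeR 4.0.16 (filterByExpr with a least count of 10 and a least total of 15, TMM factors, robust quasi-likelihood F-test, genotype as the only term). The p-values were adjusted by Benjamini-Hochberg over 19104 genes, with a threshold of 0.05. Log2 CPM of single genes were also compared by exact permutation, two-sided. DESeq2 1.42.0, limma-voom (limma 3.58.1), other scalings, filters and thresholds, the replicate letter as a block and fits without each mouse were alternatives. The biological coefficient of variation was 9.56%. The code was tested on simulated data. Libraries of a genotype were no copies of each other, with a chi-square of 6.28 to 19.3 per degree of freedom. The study states that the mice were independent, and the labels name no litter or batch. It also notes that the exact age at P12 could vary the cell types.

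The enzymes and the gene lists were chosen with earlier results of these data known. Named are the 8 enzymes, other enzymes, the genes of sterol sensing, up to 3 genes per other list with the smallest unadjusted p under 0.05, marker genes, and the 5 genes most alike. Names from the marker lists that are not described in the report had no adjusted p under 0.05 by edgeR. Positions come from GENCODE vM39 (GRCm39), promoters from RefSeq, and copies from BLAST+ 2.17.0 (at least 95% identity over at least 50% of the copy). Results for some single genes of the route are not reported here. Scripts ran in Python 3.11.15 with scipy 1.17.1 and matplotlib 3.10.9.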

Additional observations from a re-analysis of the deposited data

Results flagged for a closer look

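Over 65 named genes and both genotypes, 128 groups of 4 mice were searched for 1 mouse far from the other 3, and 9 were found, where chance alone gives about 6.4. *Hmgcs1* was at 356 CPM in wild type C, against 283 to 289 CPM in the other wild type mice. In the same mouse *Gm52866*, the gene that followed the enzymes most closely, was at 1.81 CPM against 1.25 to 1.32 CPM, and *Rhox13*, a gene of spermatogonia, was at 27.5 CPM against 38.5 to 38.7 CPM. *Srebf1*, an SREBP gene, was at 101 CPM in *Tra2b-cPEko* B against 107 to 108 CPM. *Soat1*, which stores cholesterol as ester, was at 201 CPM in *Tra2b-cPEko* B against 186 to 187 CPM. *Insl3*, a hormone of Leydig cells, was at 4.93 CPM in wild type D against 0.841 to 1.199 CPM, and at 6.05 CPM in *Tra2b-cPEko* D against 1.39 to 1.80 CPM. *Tagln*, a gene of smooth muscle, was at 89.9 CPM in wild type D against 102 to 103 CPM. *Fabp4*, a fat cell gene, was at 14.1 CPM in *Tra2b-cPEko* C against 0.541 to 2.59 CPM.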

How the results depend on the processing

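None of the 8 enzymes, the 13 other enzymes or the 7 genes of sterol sensing passed the threshold in any of the 19 settings, and the smallest adjusted p of an enzyme was 0.0834 (*Idi1*, DESeq2). The number of the 8 enzymes with a fold change below 0 was 6 to 8 and their median -0.16 to -0.06, the ends of both given by fits without 1 mouse. The sign of *Dhcr7* turned with upper-quartile factors (0.0140 on the log2 scale), and without 1 mouse its value ran from -0.0433 to 0.0429 and that of *Hmgcs1* from -0.0582 to 0.0635. Over all genes edgeR called 30, DESeq2 507, limma-voom 11, and edgeR 14 with a mean count of at least 50, 123 with no low-count filter, 12 without robust estimation and 58 with upper-quartile factors. Thresholds of 0.1 and 0.01 gave 156 and 3 calls. Without wild type A and B together, an alternative chosen after seeing the data, 1 gene was called, and without 1 mouse 3 to 84. The cause of these changes was not tested. The replicate block gave 67 calls by edgeR. Among them were *Tra2b* and *Mei1* (adjusted p of 0.0452 each), *Lhcgr* (0.0290) and *Sohlh1* (0.0462). The macrophage gene *Mrc1*, named after its values were seen, also passed (adjusted p = 0.0452). None of the 8 enzymes did (0.209 to 0.985). Same-lettered mice did not deviate together in every pair (r of 0.03, -0.14, -0.04 and 0.12 for A to D), not every mouse correlated best with its own letter, and the labels name nothing shared, so letters were not taken as pairs. By the longest transcript, and by the canonical one (chosen after seeing the data), 3 of the 8 enzymes kept their place in the order of levels. With genotype means left in, 7 of the 13 other enzymes were in the closest 1%, against 3. As under TMM, 1 enzyme was without overlap under each of 3 other scalings (chosen after seeing the data). Counts per gene show neither protein nor sterol levels.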
